A study of Mus musculus with 9 samples.

Results

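The transcripts described here are those of 8 genes chosen by symbol, namely the IL-1 family cytokine genes Il33, Il1a and Il1b, the IL-33 receptor gene Il1rl1, the IL-6 family cytokine genes Il6, Il11 and Lif, and the macrophage growth factor gene Csf1. Of these 8 genes, 7 were measured by a probe set that carried that 1 symbol, among 22180 genes in all. Il1rl1 has no probe set of its own symbol among those used here, so it was not analysed here. Each of the 7 measured genes had 1 such probe set, which gives 1 value for a gene and does not tell its transcripts apart.

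Total RNA of hMLKL1-181-2Fv-NIH3T3 cells was hybridised to 9 Affymetrix arrays with a single biotin label, with 3 groups of 3 arrays. The line derives from NIH3T3 mouse fibroblasts, and all 3 groups carry the fusion of a part of human MLKL, the membrane-permeabilizing pseudokinase of necroptosis, to Fv domains that the dimerizer B/B draws together. Cells of the washout group received B/B at 50 nM during 1 h, were sorted as positive for annexin V, which binds phosphatidylserine exposed on the cell surface, and then went through a washout lasting 6 h, listed at 3000 nM with no agent named. Cells of the B/B 1 h group had the same dose and sort without the washout, and those of the control group had a control treatment. Whether control cells passed through a sorter, when they were collected, whether the line is 1 clone, and whether a group's arrays come from separate cultures is not in the labels. In both comparisons with control, dimerizer, sort and time of collection cannot be told apart. For washout against control, the step listed at 3000 nM cannot be told apart from these either. For washout against B/B 1 h, that step and the 6 h after the sort cannot be told apart. The p-values measure the spread between these arrays, which may be technical.

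Cytokines of the IL-1 family are made without a signal peptide as a rule, and IL-33 and IL-1α sit in the nucleus of living cells and act as alarmins once a cell is broken open. IL-1β needs cleavage, by caspase-1 in the inflammasome, before it signals. IL-1α and IL-1β bind the receptor IL-1R1, IL-33 binds ST2, the product of Il1rl1, and both receptors pair with the accessory protein encoded by Il1rap and signal through MyD88 to NF-kB. IL-6, IL-11 and LIF are secreted, and each signals through the shared subunit gp130, encoded by Il6st, to JAK kinases and STAT3. Fibroblasts are a known source of IL-6, IL-11, LIF and of M-CSF, the product of Csf1, which keeps macrophages alive through the receptor CSF1R.

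The bases upstream of 4 member genes are shown because these genes changed at different times, Lif at 1 h and Il11, Il6 and Il33 after washout. They come from RefSeq for mouse assembly GRCm38.p6, run 5′ to 3′ on the strand of the gene and end at the base before the annotated transcript start, and capitals mark matches to the motifs searched. The Lif stretch is chr11:4257318-4257567 on the + strand, the Il11 stretch chr7:4778142-4778391 on the - strand, and the Il6 stretch chr5:30012864-30013113 on the + strand. Il33 has 2 annotated starts, with the stretches chr19:29924863-29925112 and chr19:29945540-29945789, both on the + strand. Il11 also has 2 annotated starts, and the one shown is the one whose window held a match.
Lif: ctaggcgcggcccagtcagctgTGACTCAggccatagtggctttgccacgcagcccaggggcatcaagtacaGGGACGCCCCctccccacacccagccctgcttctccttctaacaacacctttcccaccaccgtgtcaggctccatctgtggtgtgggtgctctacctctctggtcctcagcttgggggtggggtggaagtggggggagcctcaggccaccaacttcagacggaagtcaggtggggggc
Il11: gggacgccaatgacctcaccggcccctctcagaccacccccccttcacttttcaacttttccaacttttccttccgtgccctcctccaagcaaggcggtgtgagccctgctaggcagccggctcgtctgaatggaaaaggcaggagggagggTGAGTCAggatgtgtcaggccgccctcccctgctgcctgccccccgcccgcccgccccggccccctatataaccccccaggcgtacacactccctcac
Il6: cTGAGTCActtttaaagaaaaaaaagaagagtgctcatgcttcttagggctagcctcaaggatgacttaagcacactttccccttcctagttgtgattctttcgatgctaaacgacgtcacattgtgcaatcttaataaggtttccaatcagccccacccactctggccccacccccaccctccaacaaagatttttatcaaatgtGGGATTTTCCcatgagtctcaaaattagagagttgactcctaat
Il33, first start: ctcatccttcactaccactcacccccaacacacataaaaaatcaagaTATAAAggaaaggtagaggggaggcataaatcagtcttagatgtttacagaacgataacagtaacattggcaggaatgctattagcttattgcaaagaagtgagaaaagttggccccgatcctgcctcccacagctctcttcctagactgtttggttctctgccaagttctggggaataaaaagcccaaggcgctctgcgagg
Il33, second start: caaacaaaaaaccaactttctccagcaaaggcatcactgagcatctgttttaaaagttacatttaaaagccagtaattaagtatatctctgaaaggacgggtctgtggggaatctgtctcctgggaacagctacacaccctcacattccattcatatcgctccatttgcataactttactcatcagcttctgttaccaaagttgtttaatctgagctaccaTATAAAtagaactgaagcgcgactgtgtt

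Windows of 300 bases, from 250 before to 50 after the start, were searched on both strands for the AP-1 letters TGANTCA, the cyclic AMP element TGACGTCA, the TATA box TATAAA, the STAT letters TTCNNNGAA, the kappa B consensus and the CArG box. No 2 different motifs overlapped in the windows of the member genes. AP-1 letters began at base -228 for Lif, -98 for Il11, -249 for Il6 and -12 for Il1a, and 7.81% of 32851 RefSeq windows held them. The kappa B consensus began at -178 for Lif, where both strands match it, at -44 for Il6 and at -154 for Csf1, and 8.46% of windows held it. The TATA letters began at -203 and at -29 in the first and the second Il33 window, at -32 for Il1a and at -31 for Il1b, against 13.6% of windows. No member window held the cyclic AMP, STAT or CArG letters, which stood in 1.79%, 8.3% and 1.63% of windows. These matches describe the letters and were set against no binding data.

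**Figure D1:**
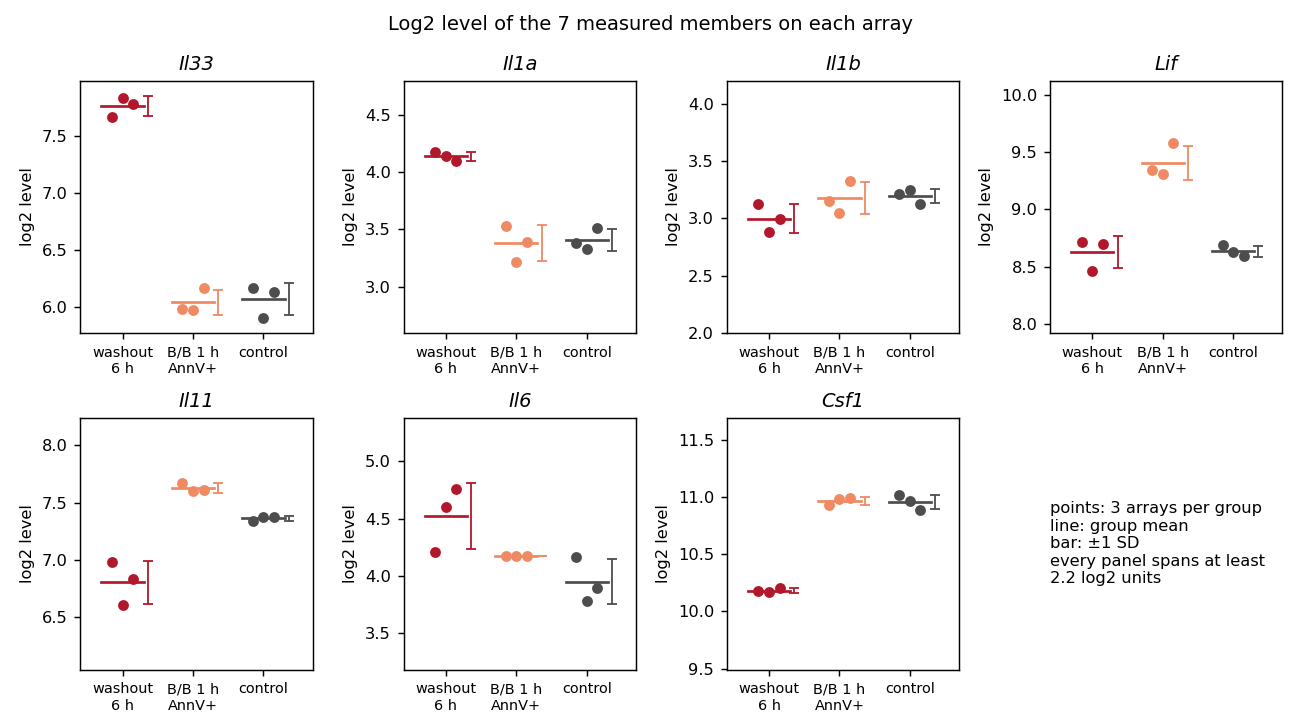
Log2 level (vertical axes) of each measured member on the 3 arrays of the washout 6 h, B/B 1 h and control groups (horizontal axes). Points are arrays, lines are group means and bars are 1 SD, and Il33 at 7.67 to 7.83 after washout stands clear of both other groups while Lif at 9.31 to 9.58 stands out in the B/B 1 h group.

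Levels are on the log2 scale of the deposited values, in which base 2 was inferred from their range. Array medians lay between 4.60 and 4.68. A gene was called changed when its limma moderated test gave an adjusted p under 0.05 after Benjamini-Hochberg adjustment over all 22180 genes. Genes in the lowest 30% by mean level are named as such, since no measure of background came with the values.

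Il33, the nuclear alarmin, was higher after washout and showed no called change at 1 h. Its log2 level was 7.67, 7.83 and 7.78 on the washout arrays, 5.99, 5.98 and 6.17 on the B/B 1 h arrays, and 6.17, 5.91 and 6.13 on the control arrays. The washout arrays lay above all 6 others, and the B/B 1 h and control arrays overlapped. In bulk RNA, a change in the share of cells that express a gene and in its RNA per cell cannot be told apart. Il33 rose by 1.69 ± 0.082 (log2 difference, SE) in washout against control cells, a 3.22-fold change with an interval of 2.83 to 3.66 at 95% (limma adjusted p 8.47e-07), and it ranked 20 from the top of the 22180 genes in that comparison. Against B/B 1 h cells the rise was 1.71 ± 0.082 (log2 difference, SE; adjusted p 5.95e-07). At 1 h the log2 difference from control was -0.02, with an interval from -0.21 to 0.16 (adjusted p 0.905).

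Il1a, which encodes IL-1α, was also higher after washout, by a lower fold than Il33. On the washout arrays its log2 level was 4.17, 4.14 and 4.10, with 3.53, 3.22 and 3.39 on the B/B 1 h arrays, and 3.38, 3.33 and 3.52 on the control arrays. The washout arrays again lay above all others, and the other groups overlapped. Il1a rose by 0.73 ± 0.079 against control (log2 difference, SE; 1.66-fold, adjusted p 9.87e-05) and by 0.76 ± 0.079 against B/B 1 h cells (log2 difference, SE; adjusted p 6.79e-05). The gene lay in the lowest 30% by mean, where 2.84% of genes were called in the comparison of washout with control. At 1 h its log2 difference was -0.03, with an interval from -0.21 to 0.15.

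Il1b, which encodes IL-1β, passed the threshold in no comparison and also lay in the lowest 30% by mean. The washout arrays gave it log2 levels of 3.13, 2.88 and 2.99, with 3.15, 3.05 and 3.32 on the B/B 1 h arrays, and 3.22, 3.25 and 3.13 on the control arrays. All 3 groups overlapped. The log2 difference between washout and control was -0.20, with an interval from -0.38 to -0.01, and its adjusted p was 0.118.

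Lif, which encodes leukemia inhibitory factor, was the member that changed at 1 h. Its log2 level was 8.72, 8.46 and 8.69 on the washout arrays, 9.34, 9.31 and 9.58 on the B/B 1 h arrays, and 8.68, 8.63 and 8.59 on the control arrays. The B/B 1 h arrays lay above all 6 others, and the washout and control arrays overlapped. Lif rose by 0.77 ± 0.086 at 1 h (log2 difference, SE; 1.71-fold with a 95% interval of 1.49 to 1.96, limma adjusted p 0.00143) and ranked 44 from the top. In washout cells it fell by 0.78 ± 0.086 against B/B 1 h cells (log2 difference, SE; adjusted p 9.73e-05), and its log2 difference from control was then -0.01, with an interval from -0.20 to 0.18. With 3 arrays a group, a difference inside that interval was not excluded.

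Il11, a gp130 cytokine known from fibroblast activation, ended below control. Il11 had a log2 level of 6.98, 6.61 and 6.83 on the washout arrays, 7.67, 7.60 and 7.61 on the B/B 1 h arrays, and 7.34, 7.38 and 7.37 on the control arrays. No groups overlapped, with B/B 1 h highest and washout lowest. Il11 fell by 0.55 ± 0.081 in washout against control cells (log2 difference, SE; adjusted p 6.42e-04) and by 0.82 ± 0.081 against B/B 1 h cells (log2 difference, SE; adjusted p 4.96e-05). The log2 difference at 1 h, 0.26 with an interval from 0.08 to 0.45, did not pass the threshold (adjusted p 0.123). It passed with only the 2 groups compared (0.0386) and without washout replicate 2 (0.0398), within 0.0386 to 0.288 over its alternatives.

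Il6, the founding cytokine of its family, was higher after washout than in control. Its mean over the 9 arrays lay at percentile 33.7 of all genes, just above the lowest 30%. The log2 level of Il6 was 4.21, 4.60 and 4.76 on the washout arrays, 4.17 on each of the B/B 1 h arrays, and 4.17, 3.79 and 3.89 on the control arrays. The groups stood in the order washout, B/B 1 h and control without overlap, although the highest control array and the B/B 1 h arrays differed only in the third decimal. The 3 B/B 1 h values are identical in the deposited table, as are those of 273 genes (1.23%) in that group, so that group's SD of 0 measures no spread. Il6 rose by 0.58 ± 0.14 in washout against control cells (log2 difference, SE; 1.49-fold with a 95% interval of 1.21 to 1.84, adjusted p 0.0105), and did not pass when the variance was left unmoderated (0.0525; 0.00116 to 0.0525 over its alternatives). The washout level did not differ from that at 1 h past the threshold (log2 difference 0.35, interval 0.05 to 0.66, adjusted p 0.0853), but did so without washout replicate 1 (0.00665; 0.00665 to 0.269 over its alternatives). At 1 h the log2 difference from control was 0.22, with an interval from -0.08 to 0.53 (adjusted p 0.417).

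Csf1, which encodes M-CSF, was lower after washout, with the smallest SE among the members. Its log2 level was 10.18, 10.17 and 10.20 on the washout arrays, 10.93, 10.98 and 10.99 on the B/B 1 h arrays, and 11.01, 10.97 and 10.89 on the control arrays. The washout arrays lay below all 6 others, and the other groups overlapped. Csf1 fell by 0.77 ± 0.045 in washout against control cells (log2 difference, SE; adjusted p 2.26e-06) and by 0.78 ± 0.045 against B/B 1 h cells (log2 difference, SE; adjusted p 1.73e-06). At 1 h its log2 difference from control was 0.01, with an interval from -0.09 to 0.11.

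**Figure D2:**
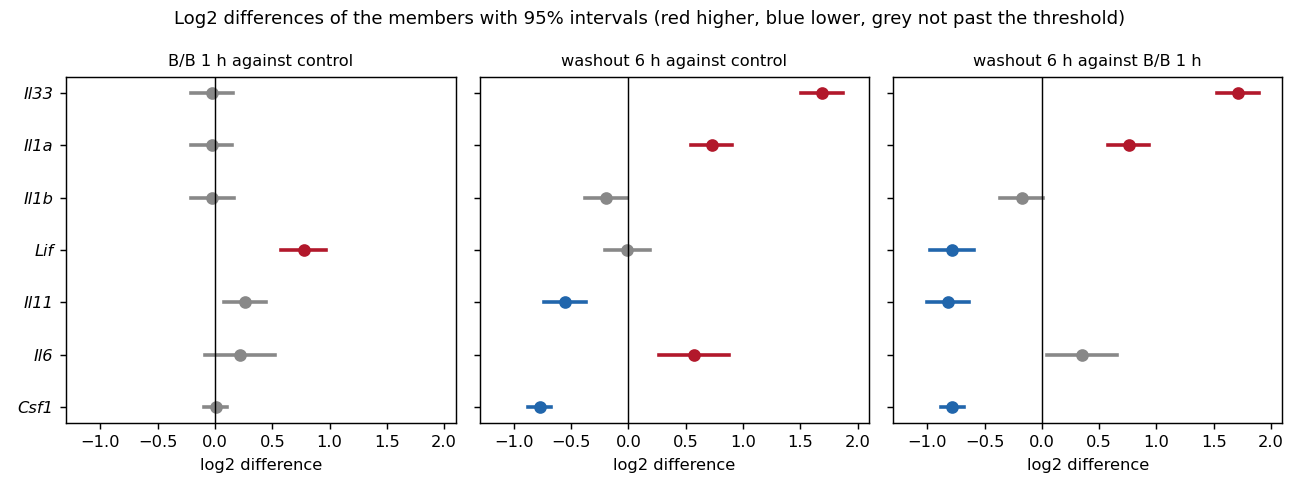
Log2 differences (horizontal axes) of the 7 measured members in the 3 comparisons, with 95% intervals from limma. Red marks members called higher, blue those called lower and grey those not past the threshold, so that Lif alone is red at 1 h and Il33 lies farthest right in both comparisons of washout.

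Counted over the members, 1 higher and 0 lower of 7 passed the threshold at 1 h, where 2.89% of all genes were called, 1.01% higher and 1.88% lower. The 642 genes behind that percentage became 376, 372 or 323 when control replicate 1, 2 or 3 was left out, and 369 or 422 when replicate 1 or 2 at 1 h was left out. The share of these calls that was higher, 34.9%, was 48% with quantile normalization. By limma at unadjusted p under 0.05, 2 of 7 members stood apart at 1 h, Lif and Il11, against 18.5% of all genes. After washout, 3 members were higher and 2 lower than control, where 26.2% of all genes were called, 14.5% higher and 11.7% lower. Against B/B 1 h, 2 were higher and 3 lower in washout cells, where 28.6% of all genes were called, 16.6% higher and 12% lower. The groups did not overlap for 3 members at 1 h, against 21.3% of all genes. They did not overlap for 5 members between washout and control, against 38% of all genes, 20.2% higher and 17.8% lower. They did not overlap for 6 members between washout and B/B 1 h, against 39.6% of all genes, 21.1% higher and 18.4% lower. The median log2 differences of the members were 0.01, -0.01 and -0.18 at 1 h, for washout against control and for washout against B/B 1 h, beside 0.0042, 0.00057 and -0.02 for all genes. The comparisons share arrays, so their values are not independent of one another.

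**Figure D3:**
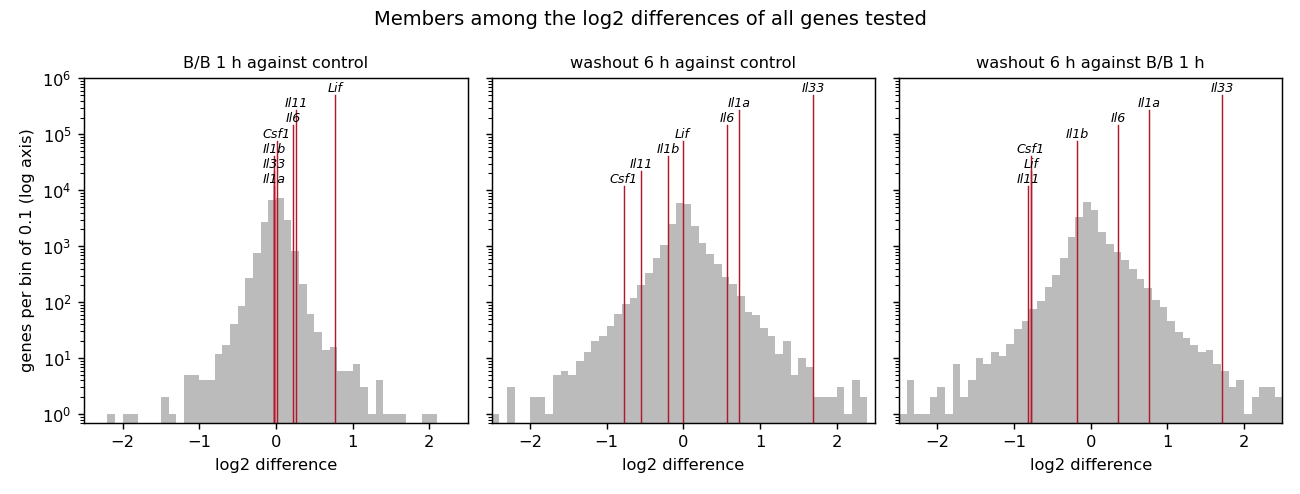
Number of genes (vertical axes, log scale) per bin of 0.1 in log2 difference (horizontal axes) for all 22180 genes in the 3 comparisons, with red lines at the members and genes beyond the axis limits not drawn. Lif lies in the right tail at 1 h, and Il33, at 1.69 and 1.71, lies in the right tail of both comparisons of washout.

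The counts of pathway genes that follow stand beside 2.89% of all genes called at 1 h (18.5% at unadjusted p under 0.05), and beside 14.5% called higher and 11.7% called lower in washout against control. Among the receptors of the IL-1 family, Il1r1, the signalling receptor of IL-1α and IL-1β, was lower at 1 h and higher after washout. Log2 levels of Il1r1 were 8.69, 8.82 and 8.84 on the washout arrays, 8.08, 8.11 and 8.23 on the B/B 1 h arrays, and 8.44, 8.52 and 8.51 on the control arrays, with no overlap between groups. Il1r1 fell by 0.35 ± 0.058 at 1 h (log2 difference, SE; adjusted p 0.0126), and that call was lost without control replicate 2 (0.0537) or 3 (0.0564). It rose by 0.29 ± 0.058 in washout against control cells (log2 difference, SE; adjusted p 0.00374). The accessory protein gene Il1rap, which IL-1 and IL-33 receptors share, stood at -0.03 in that comparison (log2 difference, interval -0.12 to 0.06; adjusted p 0.702). The decoy receptor gene Il1r2, in the lowest 30% by mean, stood at -0.28 (adjusted p 0.0647), and passed with a variance trend (0.0485) and without control replicate 2 (0.0397) or washout replicate 2 (0.0419). Of the 7 measured IL-1 family receptor genes, 0 higher and 1 lower were called at 1 h and 3 higher and 0 lower after washout, with medians of -0.05 and 0.01. The other 2 called after washout were Il18rap, the accessory chain of the IL-18 receptor, at 0.49, and Il1rl2, the IL-36 receptor gene, at 0.49 (log2 difference).

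The 6 measured IL-1 family ligand genes had 0 calls at 1 h in limma, also at unadjusted p under 0.05. After washout, 2 higher and 0 lower were called, Il33 and Il1a, with a median log2 difference of 0.13. The receptor antagonist gene Il1rn, in the lowest 30% by mean, stood at 0.07 after washout (interval -0.08 to 0.22; adjusted p 0.523). Of 12 measured genes that carry the signal from these receptors, 0 were called at 1 h by limma (4 at unadjusted p under 0.05), and 4 higher and 3 lower were called after washout. Traf6, the ubiquitin ligase of the pathway, rose by 0.37 and Tab1, an adaptor of the TAK1 kinase, by 0.31. Peli2, a Pellino ubiquitin ligase, fell by 0.47, and its call was lost without moderation and without control replicate 3 or washout replicate 1 or 2 (adjusted p up to 0.0617).

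Of the 7 measured IL-6 family receptor genes, 1 higher (Lifr) and 2 lower (Il6ra and Osmr) were called after washout. Lifr, the receptor subunit that LIF shares with some other ligands of the family, had log2 levels of 8.21, 8.36 and 8.32 on the washout arrays, 6.72, 6.77 and 6.77 on the B/B 1 h arrays, and 6.88, 6.92 and 6.74 on the control arrays. It rose by 1.45 ± 0.059 in washout against control cells (log2 difference, SE; 2.73-fold, adjusted p 2.94e-07), in the comparison in which Lif had no call. Il6ra, the ligand-binding chain for IL-6, had log2 levels of 7.21, 7.50 and 7.44 on the washout arrays, 7.99 to 8.10 on the 3 B/B 1 h arrays, and 8.24, 8.19 and 8.24 on the control arrays. It fell by 0.84 ± 0.072 in washout against control cells (log2 difference, SE; adjusted p 2.43e-05), in the comparison in which Il6 rose. Osmr, the oncostatin M receptor subunit, fell by 0.47 ± 0.042 (log2 difference, SE; adjusted p 2.94e-05). The shared gp130 gene Il6st stood at 0.05 (interval -0.05 to 0.15; adjusted p 0.479).

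At 1 h, 0 of these receptor genes were called by limma (1 at unadjusted p under 0.05). Il11ra1, the IL-11 receptor chain, was not analysed here. The 10 measured IL-6 family ligand genes had 1 higher and 0 lower at 1 h, Lif, and 2 higher and 1 lower after washout, with medians of 0.09 and -0.10. Beside Il6 and Il11, the third was Clcf1, a ligand of the CNTF receptor, which rose by 0.27 (log2 difference; adjusted p 0.00742). Among 11 measured genes of gp130 signalling, 0 higher and 1 lower were called at 1 h and 4 higher and 2 lower after washout. Jak2 and Tyk2, kinases that bind such receptors, rose by 0.73 and 0.44 after washout. Socs3, the feedback inhibitor of gp130 signalling that STAT3 induces, fell by 0.83 ± 0.079 after washout (log2 difference, SE; adjusted p 4.16e-05).

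Socs3 also fell by 0.44 ± 0.079 at 1 h (log2 difference, SE; adjusted p 0.0192), the comparison in which Lif rose. Its 3 values at 1 h were identical, with an SD of 0, like those of Il6. The 1 h call was lost with probe sets averaged (0.106), without moderation (0.0735), and without control replicate 2 or 3 or B/B 1 h replicate 1 or 2 (0.0619 to 0.0806).

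Il34, which encodes the other ligand of CSF1R, moved against Csf1 after washout. Log2 levels of Il34 were 8.48, 8.37 and 8.53 on the washout arrays, 7.27, 7.08 and 7.24 on the B/B 1 h arrays, and 7.32, 7.42 and 7.44 on the control arrays. The washout arrays lay above all others. Il34 rose by 1.06 ± 0.065 in washout against control cells (log2 difference, SE; 2.09-fold, adjusted p 3.02e-06). The receptor gene Csf1r stood at 0.12 (interval -0.03 to 0.27; adjusted p 0.263). Of the 8 measured colony stimulating factor and receptor genes, 0 were called at 1 h by limma (3 at unadjusted p under 0.05) and 1 higher and 1 lower after washout, Il34 and Csf1.

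**Figure D4:**
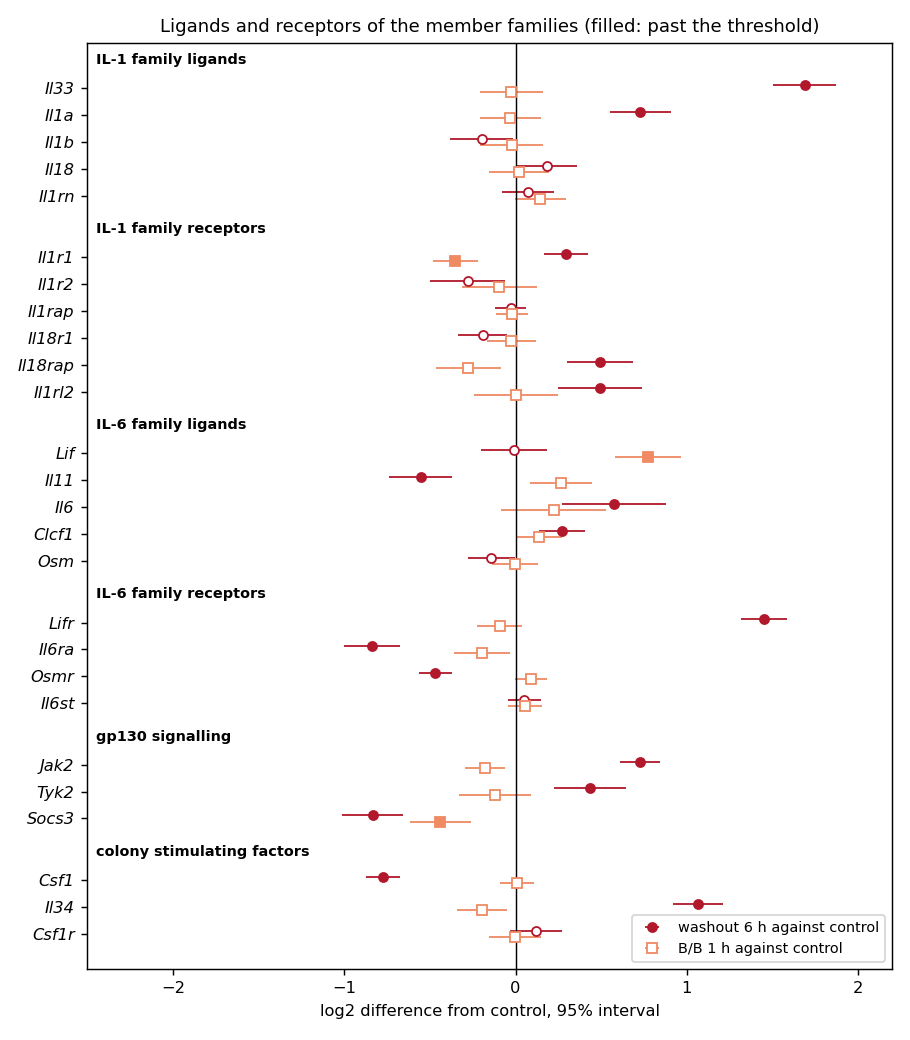
Log2 difference from control (horizontal axis, with 95% intervals from limma) of ligand, receptor and signalling genes of the member families (vertical axis) for washout 6 h (red circles) and B/B 1 h (orange squares). Filled symbols passed the threshold, and Il33, Lifr and Il34 lie farthest to the right after washout while Il6ra, Socs3 and Csf1 lie farthest to the left.

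The genes most like each member were those with the smallest root mean square difference to it over the 9 arrays, each gene centred on its control mean, among 6215 other genes with a call in the F-test over the 3 groups, after 326 called genes with predicted-gene names (Gm and digits, Rik, LOC and digits) were left out. That F-test called 29.5% of all genes and 6 of the 7 members, all but Il1b. Nearest to Il33 were Kif3c, a kinesin motor gene, at 0.12, Gfpt2, an enzyme gene of hexosamine synthesis, at 0.12 and Itgb3, an integrin subunit gene, at 0.136 (root mean square log2 difference). These 3 genes rose by 1.57, 1.68 and 1.75 in washout against control cells. Nearest to Lif were Slc5a5, the sodium iodide symporter gene, at 0.0947, Ifrd1, a transcriptional co-regulator gene, at 0.134 and Ampd1, an AMP deaminase gene, at 0.137, and they rose by 0.79, 0.81 and 0.71 at 1 h. Nearest to Il11 were Klf4, a zinc finger transcription factor gene, at 0.0874, the mRNA cap scavenger gene Dcps at 0.106 and the keratin gene Krt80 at 0.114. Nearest to Il6 were Il23a, the p19 subunit gene of IL-23, at 0.133, Helz2, a helicase gene, at 0.135 and Pex26, a peroxisome gene, at 0.139. The nearest to Il1a, Tspan14, Leprotl1 and Ube2d1, lay at 0.0667 to 0.0693, and the nearest to Csf1, Nfic, Uhrf1 and Fer, at 0.0414 to 0.0488. Closeness was measured over arrays that form 3 groups, so it is mostly closeness of group means.

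Markers of cells that could also make or read these cytokines were measured on the same arrays. The lowest 30% of genes by mean held 1 of 12 fibroblast, 3 of 11 epithelial and 3 of 11 endothelial markers. That cut alone does not set these cell types apart. Mean log2 levels on control arrays were 9.3 to 9.33, 4.68 to 4.72 and 4.53 to 4.61 for these lists, in that order. The fibroblast markers had 0 calls at 1 h by limma (5 at unadjusted p under 0.05) and 2 higher and 6 lower after washout. Among them Pdgfrb, a growth factor receptor gene, stood at -1.36 and Col1a2, a collagen chain gene, at -0.99 (log2 difference). Pdgfra and Dcn of the same list went the other way. Their mean log2 levels were 10.02 and 10.78 on washout and 9.33 and 10.55 on control arrays. Of 9 mast cell and basophil markers, cells in which the IL-33 receptor is known, 8 lay in the lowest 30% and 0 were called by limma in any comparison. At unadjusted p under 0.05 by limma, 0 passed in either comparison with control and 2 for washout against B/B 1 h. Of all genes, 18.5% passed so at 1 h, 34% for washout against control and 37.3% for washout against B/B 1 h. Of 12 leukocyte markers, 5 lay in the lowest 30%, and 3 higher and 0 lower were called at 1 h and 1 higher and 2 lower after washout. At 1 h Cd14, the lipopolysaccharide co-receptor gene, rose by 0.61 and Cd68, a lysosomal gene of macrophages, by 0.51 (log2, limma adjusted p 6.35e-04 and 0.00514), and both lay above the lowest 30%. The third was Adgre1, which encodes the macrophage antigen F4/80 and lay in the lowest 30%, at 0.30 (adjusted p 0.0446), a call lost in 13 of 18 alternatives (0.032 to 0.13 over them), among them each array left out. After washout Cd14 rose by 1.47, and Ptprc, the leukocyte antigen CD45 gene, and Lyz2, a lysozyme gene, both in the lowest 30%, stood at -0.19 and -0.30. The Ptprc call was lost without control replicate 1 or 3 or washout replicate 2 or 3 (adjusted p up to 0.0888), and the Lyz2 call without moderation and without control replicate 1 or 2 or washout replicate 2 or 3 (up to 0.0902). The summed linear level of all 12 leukocyte markers was 1043 to 1074 on washout, 866 to 924 on B/B 1 h and 651 to 698 on control arrays. A sum without Cd14, added after these values were seen, was 416 to 440 on washout, 542 to 556 on B/B 1 h and 420 to 458 on control arrays. Cd68 had the highest level in that sum and weighs most in it. Its mean log2 levels were 7.71 on washout, 8.30 on B/B 1 h and 7.78 on control arrays, and no sum without it was made. Epithelial markers had 0 higher and 1 lower of 11 after washout, Cdh1, and endothelial markers 1 higher and 0 lower of 11, Cdh5, and both lists had 0 calls at 1 h by limma (1 epithelial and 5 endothelial at unadjusted p under 0.05). The Cdh1 call was lost in 7 alternatives, with control replicate 1 or 3 or washout replicate 2 or 3 left out among them, and its log2 difference of -0.20 was -0.07 with probe sets averaged (adjusted p 0.339). The part of other cell types in the cytokine values was not tested. Mouse Mlkl fell by 0.49 after washout, and Ripk3, the kinase upstream of MLKL, stood at -0.20 (adjusted p 0.314).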

How the data were processed

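The data are 1 value per probe set on 9 Affymetrix arrays. The deposited values are log2 summaries already normalized between arrays by the authors, as read from the values themselves. The submitters' processing notes name Partek 6.6, and the summary method is not given in the sources used here. RNA was extracted with Trizol and labelled as biotinylated cRNA, per the labels' protocols.

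Of 41345 probe sets, 23521 carried 1 symbol, 1814 several and 16010 none, by the platform annotation, and 0 symbols changed through the RefSeq gene table of GRCm38.p6. The probe set with the highest mean stood for each of 22180 genes. Groups, taken from the treatment labels, were compared in 1 model of 3 group means with limma 3.58.1 and statmod 1.5.0 in R 4.3.3. Adjustment was by Benjamini-Hochberg over all genes, at 0.05. The number of arrays limits the precision. The model was tested on simulated data.

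Genes named are the members, receptors and antagonists of the members, up to 3 called genes of each pathway list or 2 of each marker list in a comparison, the 3 genes nearest each member, and Mlkl and Ripk3. Adgre1, Ptprc, Hmgb1, Pdgfra, Dcn and Hspa1a fall outside this rule and were picked with their values in view. Members and lists were chosen with earlier results of these data known. Alternatives were quantile normalization, centred medians, a filter on the lowest 30%, probe sets averaged or tested singly, other variance models, array weights, 2 groups only, and each array left out.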

Additional observations from a re-analysis of the deposited data

How the results depend on the processing

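Of 11 called member differences, 10 kept their direction and call under every alternative that gave a value, and Il6 in washout against control lost its call without moderation (0.58, adjusted p 0.0525). The filter on the lowest 30% gave no value for Il1a and Il1b, and only 2 groups gave no F-test. Of 10 differences without a call, 5 changed sign at sizes near 0. For B/B 1 h against control, Il33 was 0.00893 with quantile normalization and -0.10 to 0.0255 with an array left out, turning to 0.0255 or 0.00692 when control replicate 1 or 3 was left out and to 0.00459 or 0.0108 when replicate 1 or 2 at 1 h was. Csf1 was -0.00798 with medians centred and -0.0259 to 0.0356 with an array left out, turning to -0.0259 without control replicate 3 and -0.00482 without B/B 1 h replicate 3. Il1a, at -0.10 to 0.05, turned to 0.0228 and 0.0516 without control replicate 3 and B/B 1 h replicate 2, and Il1b to 0.00323 and 0.0405 without control replicate 2 and B/B 1 h replicate 2. For washout against control, Lif was 0.0139 with medians centred and -0.0564 to 0.0715 with an array left out, turning to 0.0153 and 0.0715 without control replicate 1 and washout replicate 2. Of 84 other values, 70 kept their direction and call, and Il1rap (washout against control) ran from -0.0467 to 0.00179 with an array left out, above 0 without control replicate 2.

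At 1 h the 642 called genes became 1228 with a variance trend, 359 with only 2 groups and 323 to 691 with an array left out. Members called at 1 h numbered 2 with only 2 groups and 1 to 2 with an array left out, the second being Il11, at 0.26 with 2 groups and 0.24 to 0.28 with an array left out. Il6 between washout and B/B 1 h ran from 0.23 to 0.51 with an array left out. No paired analysis was possible because the labels carry no replicate numbers. The replicate numbers used here only follow the order of the arrays in each group. Centring medians moved the median of all genes by at most 0.0391 (log2).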

Other observations

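Genes for other alarmins, proteins with other tasks in the cell that signal when released, showed small changes apart from 1 heat shock gene. Of 14 measured, 1 higher and 0 lower were called at 1 h and 1 higher and 4 lower after washout, with median log2 differences of 0.0047 and -0.13 from control, beside 0.0042 and 0.00057 for all genes. Hspa1b, an inducible chaperone gene, rose by 1.56 at 1 h and by 0.78 after washout (log2, limma adjusted p 3.1e-07 and 2.96e-06). Hspa1a of the same list was not called against control. Its mean log2 levels were low, at 3.69 on washout, 3.69 on B/B 1 h and 3.56 on control arrays. S100a4, a calcium-binding protein gene, fell by 0.29 after washout (log2, adjusted p 0.00152), and S100a6, a related gene, fell by 0.18 (adjusted p 0.0148), a call lost without control replicate 2 or washout replicate 1 or 2 (up to 0.0571). Hmgb1, the nuclear chromatin protein that acts as an alarmin outside the cell, stood at -0.07 in washout against control cells (adjusted p 0.327). Against B/B 1 h cells Hmgb1 was called lower, at -0.15 (log2, limma adjusted p 0.032). Hmgb1 was chosen after its value was seen. In that comparison 0 higher and 5 lower of the 14 genes were called, beside 16.6% higher and 12% lower of all genes.

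Of 11 measured inflammasome and IL-1 processing genes, 0 were called at 1 h by limma (3 at unadjusted p under 0.05) and 3 higher and 0 lower after washout. Aim2, a sensor of cytosolic DNA, rose by 0.38, Cast, which encodes the calpain inhibitor calpastatin, by 0.26, and Nlrp3, the inflammasome sensor gene, by 0.28 (log2). The Nlrp3 call was lost without washout replicate 2 (adjusted p 0.0578). Of the 11 genes, 3 lay in the lowest 30% by mean. Nlrp3 lay above that cut but was low, with mean log2 levels of 4.17 on washout, 4.19 on B/B 1 h and 3.89 on control arrays. Nlrp3 already stood at 0.30 at 1 h (log2, limma adjusted p 0.0577), and at -0.02 in washout against B/B 1 h cells (0.852).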
